A study of Mus musculus with 24 samples.

Results

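Cytochrome P450 genes were described in mouse primary hepatocytes across the 24 arrays of a series that crossed 2 hormones, 2 drug treatments and 2 hairpins. The members were chosen by symbol: every gene of the platform's probe annotation whose name starts with Cyp and a digit, with 4 pseudogenes left out (Cyp2c53-ps, Cyp2d37-ps, Cyp4b1-ps2 and Cyp4f41-ps), and without the bile acid and sterol enzymes Cyp7a1, Cyp7b1, Cyp8b1, Cyp27a1 and Cyp51. This gave 89 of the 22180 genes tested. The hepatocytes came from male C57Bl6J mice, each experiment using cells pooled from 3 mice, and each of the 8 groups held 3 arrays, from experiments 1, 2 and 3. The groups received 100 nM glucagon or 1 nM insulin for 4 h, each together with GW4064 at 2 µM, a compound that activates the nuclear receptor FXR, or with the solvent DMSO. They carried an adenovirus for the hairpin shFOXA2.3, directed at the liver transcription factor FOXA2, or for shlacZ, directed at a bacterial gene, at a multiplicity of infection of 5. All groups shared the adenovirus and a low glucose medium with 100 nM dexamethasone, a glucocorticoid, and none lacked both hormones, so that a rise under glucagon cannot be told apart from a fall under insulin.

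P450 enzymes are heme proteins that insert oxygen into their substrates with electrons passed on by partner proteins. Families 1 to 3 are best known for drugs and other foreign compounds, with the AHR, CAR and PXR receptors inducing many of them, family 4 mainly for fatty acids, and other members for steroids, vitamin D and retinoic acid. Many are most abundant in hepatocytes, and isolated hepatocytes are known to lose much of their P450 expression in culture.

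Levels are log2 values, and a difference of 1 on this scale is a doubling. The 9 measured hepatocyte markers were all above the floor defined below, whereas 2 of 10 macrophage, 3 of 10 stellate, 6 of 10 endothelial, 2 of 7 cholangiocyte and 0 of 8 lymphocyte markers were. The array medians lay between 3.21 and 3.28. Foxa2 was lower with shFOXA2.3 than with shlacZ in 12 of 12 pairs, with a difference of -0.43 (SE 0.072, limma adjusted p = 0.0613, and 0.0194 with the experiment as a block), with -0.51, -0.66 and -0.12 in experiments 1, 2 and 3. Nr0b2, a target gene of FXR, was higher with GW4064 than with DMSO in 11 of 12 pairs, by 0.53 (SE 0.081, limma adjusted p = 0.0337), a call made in 9 of 31 alternative fits, and its levels lay near the floor.

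The share of P450 genes detected was close to that of all genes. The floor was set at 3.75, the 95th percentile of the mean level of 1394 olfactory and vomeronasal receptor genes, which serve here as a background for liver, and a gene counted as above it where the mean of at least 1 group of 3 arrays reached it. Of the members, 44 of 89 (49.4%) were above the floor, against 45.1% of all genes. Of these 44, 4 had a mean over the 24 arrays below it, Cyp26a1 (3.50), Cyp4a12a (3.51), Cyp2c55 (3.70) and Cyp3a25 (3.72). Since probe sets differ in brightness, levels of different genes were not compared, and the order of their mean levels served only to choose genes to describe.

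Detection differed between subfamilies. Above the floor lay 2 of 3 CYP1, 3 of 4 CYP2A, 11 of 14 CYP2C, 5 of 9 CYP2D, 3 of 7 CYP3 and 4 of 6 CYP4A genes, 2 of 7 CYP2J and 3 of 9 CYP4F genes, and the single genes Cyp2e1, Cyp2f2, Cyp2u1, Cyp4b1 and Cyp4v3. The single genes Cyp2ab1, Cyp2g1, Cyp2s1, Cyp2t4, Cyp2w1 and Cyp4x1 were near it. Of 3 other sterol or orphan genes, 2 were above the floor, Cyp20a1 and Cyp39a1. Of 5 CYP2B genes, 1 was above it, Cyp2b10, the classic target of the receptor CAR, with a mean of 11.2 over the 24 arrays. Of the 5 steroid hormone genes, the only member above it was Cyp17a1, the 17α-hydroxylase, and the vitamin D and retinoid group had 2 of 6, the vitamin D 25-hydroxylase Cyp2r1 and the retinoic acid hydroxylase Cyp26a1. The genes of the adrenal steroid enzymes Cyp11a1, Cyp11b1, Cyp11b2 and Cyp21a1 were near the floor on these arrays.

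The promoter sequences below are those of the 2 genes that passed the hormone test, Cyp3a13 and Cyp4v3, of 2 genes that differed widely between experiments, Cyp2e1 and Cyp3a11, and of Cyp20a1, which, of the 44 members above the floor, differed least between experiments after Cyp3a13. They are the 250 bases before the transcription start in the RefSeq annotation of GRCm38.p6, written 5′ to 3′ on the gene's strand, and capitals mark the letters searched for.
Cyp3a13: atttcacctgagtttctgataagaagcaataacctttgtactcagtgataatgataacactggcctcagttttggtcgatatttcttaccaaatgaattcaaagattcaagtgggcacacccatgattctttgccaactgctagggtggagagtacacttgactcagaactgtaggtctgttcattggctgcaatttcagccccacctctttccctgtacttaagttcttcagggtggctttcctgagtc
Cyp4v3: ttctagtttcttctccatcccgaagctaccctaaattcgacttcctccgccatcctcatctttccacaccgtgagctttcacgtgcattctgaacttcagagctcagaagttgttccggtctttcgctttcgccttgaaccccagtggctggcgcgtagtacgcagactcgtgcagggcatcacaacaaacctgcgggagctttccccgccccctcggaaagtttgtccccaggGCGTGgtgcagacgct
Cyp2e1: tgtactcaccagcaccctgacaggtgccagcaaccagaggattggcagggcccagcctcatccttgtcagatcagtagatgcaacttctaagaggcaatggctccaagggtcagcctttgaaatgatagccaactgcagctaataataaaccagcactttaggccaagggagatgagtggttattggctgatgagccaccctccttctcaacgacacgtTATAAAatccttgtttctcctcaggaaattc
Cyp3a11: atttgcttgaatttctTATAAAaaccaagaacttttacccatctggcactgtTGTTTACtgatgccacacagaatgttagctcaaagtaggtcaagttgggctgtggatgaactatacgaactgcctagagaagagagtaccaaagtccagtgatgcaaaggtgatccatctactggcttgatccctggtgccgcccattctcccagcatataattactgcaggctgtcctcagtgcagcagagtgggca
Cyp20a1: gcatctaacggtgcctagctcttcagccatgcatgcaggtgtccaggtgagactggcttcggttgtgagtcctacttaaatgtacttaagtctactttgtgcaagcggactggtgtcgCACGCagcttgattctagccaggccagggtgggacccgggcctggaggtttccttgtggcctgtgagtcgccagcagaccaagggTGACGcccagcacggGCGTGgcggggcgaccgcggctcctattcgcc
They lie at chr5:137921620-137921869, minus strand, for Cyp3a13, at chr8:45333164-45333413, minus strand, for Cyp4v3, at chr7:140763569-140763818, plus strand, for Cyp2e1, at chr5:145879855-145880104, minus strand, for Cyp3a11, and at chr1:60343050-60343299, plus strand, for Cyp20a1. The start used for Cyp3a13 is inside the annotated gene, whose outer end on that strand is at 137925610.

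Motifs were searched on both strands in windows of 300 bases that reach 50 bases past the start. The TATA box was searched as TATAAA. The core bound by AHR, the receptor for dioxin-like compounds, was searched as GCGTG. A forkhead motif, the class bound by FOXA factors, was searched as TGTTTAC. The core of the cAMP response element was searched as TGACG. No match in these genes lay in the last 50 bases. Cyp2e1 had TATAAA 31 bases before its start, at base 220. Cyp3a11 had TATAAA at base 17 and the forkhead letters at base 53, Cyp4v3 had GCGTG at base 235, Cyp20a1 had GCGTG at base 219, its reverse complement at base 119 and TGACG at base 204, and Cyp3a13 had none of the 4. A window was at hand for 33 of the 44 members above the floor, and TATAAA was in 19 of them, GCGTG in 7, the forkhead letters in 4 and TGACG in 2. Among all 27025 genes with a window the shares were 15.7%, 35.2%, 4.05% and 23.0%. Such matches describe the letters of these windows and do not show that a factor binds there.

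Glucagon against insulin was compared first, averaged over the hairpins and drugs. Few P450 genes passed and their differences were small: Cyp4v3, a fatty acid hydroxylase, rose by 0.37 (29.7%), and Cyp3a13, a CYP3A drug-metabolising enzyme, fell by 0.24 on the log2 scale (15.5%). The other 87 of 89 did not pass. The 2 calls are 2.25% of the members, against 16.2% of all 22180 genes, of which 7.38% rose and 8.85% fell (limma, Benjamini-Hochberg adjusted p under 0.05), and 4.55% of the members above the floor, against 33.0% of all genes above it. At an unadjusted p under 0.05 there were 12 members, against 25.3% of all genes.

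Cyp3a13 had levels of 9.52, 9.67 and 9.82 (lowest, median and highest) on the 12 glucagon arrays, against 9.77, 9.91 and 10.1 on the 12 insulin arrays. The 2 sets overlapped narrowly, and the glucagon array was the lower one in all 12 pairs of the same experiment, drug and hairpin. The difference was -0.24 (SE 0.041, limma adjusted p = 2.0e-04), and -0.23, -0.21 and -0.29 in experiments 1, 2 and 3. It passed in 32 of 32 alternative fits.

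Cyp4v3 had levels of 8.82, 9.15 and 9.38 on the glucagon arrays, against 8.49, 8.72 and 9.07 on the insulin arrays. These overlapped, but within each of the 12 pairs the glucagon array was the higher one. The difference was 0.37 (SE 0.089, limma adjusted p = 0.00449), with 0.34, 0.24 and 0.54 in experiments 1, 2 and 3, and it passed in 31 of 32 alternatives. A second probe set, which the annotation gives to both Klkb1 and Cyp4v3 and which was not tested, had 3.98 ± 0.22 under glucagon and 3.49 ± 0.28 under insulin (SD, n = 12 each), close to the floor, and was higher under glucagon in 12 of 12 pairs.

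**Figure D1:**
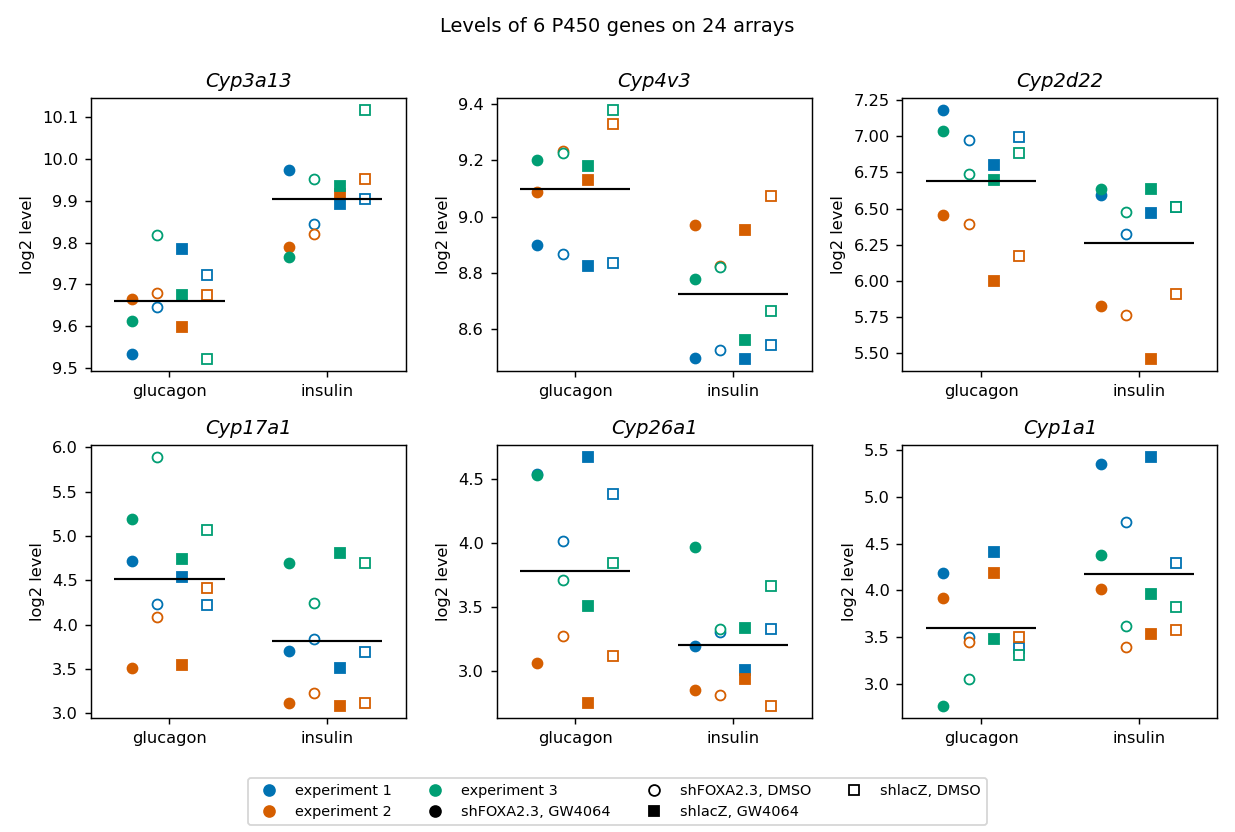
Log2 level of 6 P450 genes on each of the 24 arrays, glucagon on the left and insulin on the right of each panel, with colours for the 3 experiments, circles for shFOXA2.3, squares for shlacZ, filled symbols for GW4064 and open symbols for DMSO. Black lines are means of 12 arrays, and the scale differs between panels. The Cyp3a13 arrays separate nearly completely by hormone, while in the other panels values also differ by colour, that is by experiment.

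Comparing arrays within experiments brought out more members. With the experiment as a block, which left every difference as it was and took the differences between experiments out of the error, 13 members were higher and 3 lower under glucagon, 16 of 89 (18.0%), against 24.6% of all genes. Among genes above the floor this was 16 of 44 (36.4%), against 49.1%, and 14 of 40 (35%), against 50.2%, among those whose mean over the 24 arrays reached it. The 3 lower ones were Cyp3a13, Cyp1a1 and Cyp4f17 (-0.23). Cyp4f17 was lower on average but not in shlacZ cells with DMSO. Its highest group mean was that of shlacZ cells with glucagon and DMSO (5.31). Its lowest was that of shlacZ cells with glucagon and GW4064 (4.73). The 13 higher ones were Cyp4v3, Cyp2d22, Cyp17a1, Cyp26a1, Cyp2d10, Cyp2f2, Cyp4a12a, Cyp39a1, Cyp2a4, Cyp3a11, Cyp1a2, Cyp2j6 and Cyp2c70, with differences from 0.11 to 0.70.

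Cyp17a1 had the largest difference of any member. Its levels were 3.51, 4.47 and 5.89 under glucagon, against 3.08, 3.70 and 4.81 under insulin, so that both sets reach below the floor. The difference was 0.70 (SE 0.285, limma adjusted p = 0.114, and 5.3e-05 with the experiment as a block), it was positive in 11 of 12 pairs, and it was 0.74, 0.75 and 0.61 in experiments 1, 2 and 3.

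Cyp2d22, of the CYP2D drug-metabolising group, had 6.0, 6.77 and 7.18 under glucagon, against 5.46, 6.47 and 6.64 under insulin. Its overlap came from experiment 2, whose arrays were the lowest under both hormones, and all 12 pairs were higher under glucagon. The difference was 0.43 (SE 0.162, limma adjusted p = 0.0785, and 1.5e-06 with the block).

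The differences of Cyp26a1 and Cyp1a1 varied between experiments, which was not tested. Cyp26a1 had 2.76, 3.78 and 4.67 under glucagon, against 2.73, 3.25 and 3.97 under insulin, and its difference of 0.58 (SE 0.223, limma adjusted p = 0.0928, and 0.00264 with the block) was 1.19 in experiment 1 and 0.22 and 0.32 in experiments 2 and 3. Cyp1a1, the classic AHR target, had 2.77, 3.49 and 4.41 under glucagon, against 3.40, 3.99 and 5.43 under insulin. Its difference of -0.58 (SE 0.227, limma adjusted p = 0.0981, and 0.00583 with the block) was -1.08 in experiment 1 and -0.79 in experiment 3, against 0.13 in experiment 2.

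Its neighbour Cyp1a2 did not share this direction. Cyp1a2, which lies beside Cyp1a1 on chromosome 9, had 6.54, 6.80 and 7.95 under glucagon, against 6.49, 6.65 and 7.65 under insulin, and was higher under glucagon in 12 of 12 pairs, by 0.16 (SE 0.224, limma adjusted p = 0.754, and 0.00534 with the block). Cyp1b1 was near the floor with a difference of -0.01.

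Among drug-metabolising members with bright probe sets, Cyp2b10 and Cyp2e1 differed little by hormone, unlike Cyp3a13. Cyp2b10 had 10.3, 11.0 and 11.9 under glucagon, against 10.6, 11.1 and 11.9 under insulin, a difference of -0.04, with a 95% interval from -0.14 to 0.06 with the block. Cyp2e1, the ethanol-inducible P450, had 8.19, 8.97 and 10.2 under glucagon, against 8.10, 8.90 and 10.2 under insulin, a difference of 0.05 with an interval from -0.06 to 0.15. For both genes these block intervals exclude a change of 1.5-fold in either direction. Without the block the intervals were wider, and that of Cyp2e1 reached past 1.5-fold in both directions. Cyp3a11, the main hepatic CYP3A gene and a PXR target, was 0.18 higher (block interval 0.06 to 0.30). Without the block its interval included no change. The other members among the 10 of brightest mean, Cyp2a12, Cyp2c70, Cyp2d26, Cyp2c29 and Cyp20a1, had differences of 0.15, 0.11, 0.13, 0.14 and 0.01. Of the fatty acid hydroxylases, Cyp4a14, a PPARA target, differed by 0.06 and Cyp4a12a by 0.29. Cyp2a5 differed by 0.15 and Cyp24a1, near the floor, by 0.05, and none of these passed without the block.

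Small differences of the members mostly pointed towards glucagon. Of all 89 members 65 (73.0%) had a positive difference, against 52.3% of all genes, and the median was 0.05 for the members and 0.01 for all genes. Above the floor 36 of 44 (81.8%) were positive, against 50.4%, but the 4 members with a mean over the 24 arrays below the floor all passed it through a glucagon group. Over the other 40 members 32 (80.0%) were positive, against 50.2% of all genes so chosen, with a median of 0.14, against 0.00. These are descriptions, with no test. A difference over 1.5-fold was found for 1 of 44 members (2.27%), Cyp17a1, against 8.27% of all genes above the floor. Genes of 1 subfamily share much of their sequence, so that their probe sets can share signal and are not independent.

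**Figure D2:**
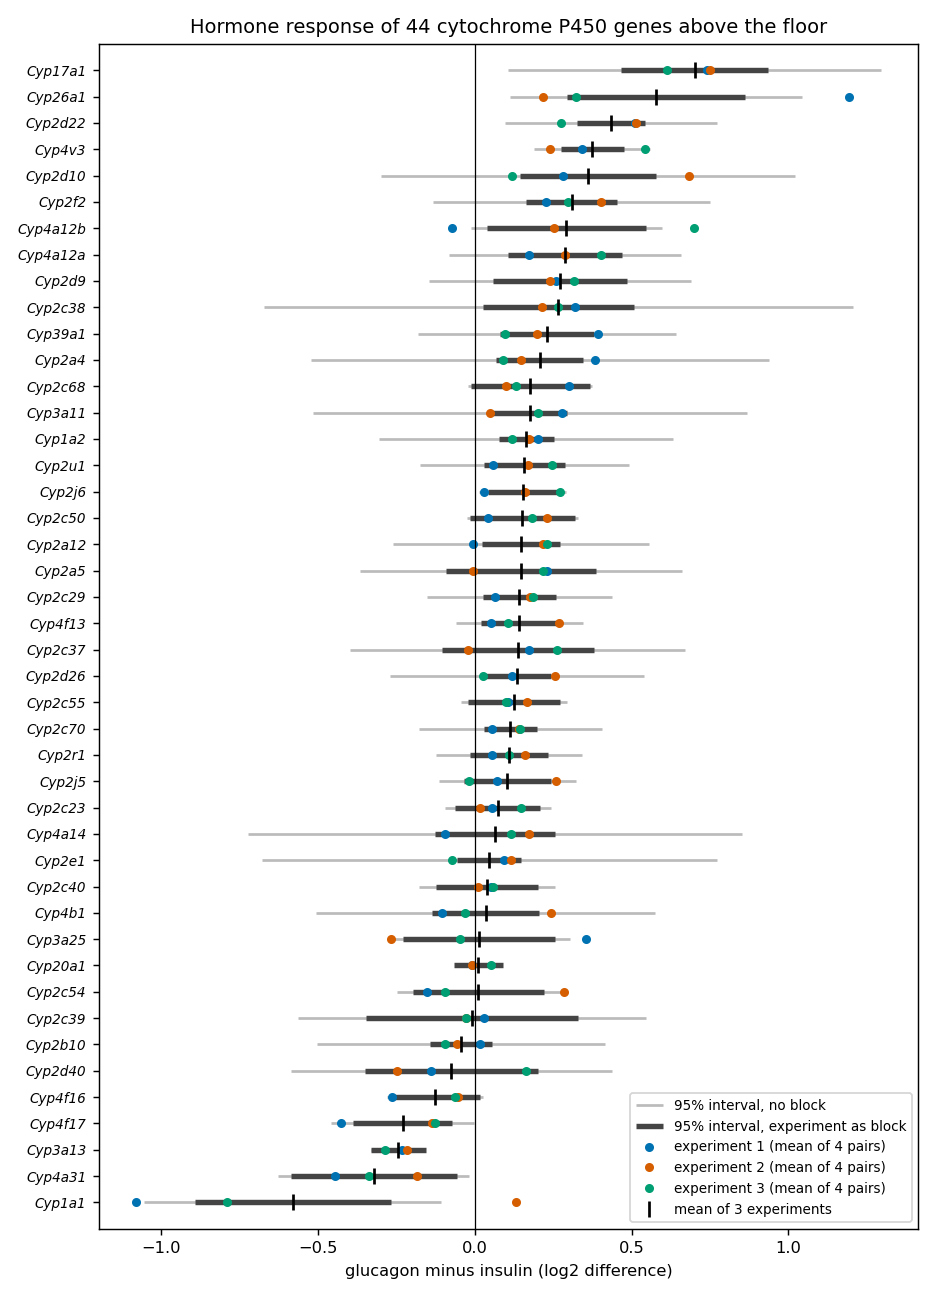
Glucagon minus insulin, as a log2 difference, for the 44 P450 genes above the floor, sorted by size. Black ticks are means over the 3 experiments, coloured points the mean of 4 pairs in each experiment, grey bars 95% intervals without the block and dark bars with it. Most ticks lie right of 0 and within 0.5 of it, and the points of Cyp26a1 and Cyp1a1 lie far apart.

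Within single conditions the differences of Cyp3a13 and Cyp4v3 kept their sign, but few members passed. In shlacZ cells with DMSO 1 member passed, Cyp3a13 (-0.35, SE 0.083, limma adjusted p = 0.0158), 1.12% of the members against 4.68% of all genes, and with the block 5 members were higher and 1 lower, against 11.2% of all genes. It did not pass when the glucagon or the insulin shlacZ DMSO array of experiment 3, or any 1 experiment, was left out. In shFOXA2.3 cells with GW4064, in shFOXA2.3 cells with DMSO and in shlacZ cells with GW4064 no member passed, against 3.49%, 4.79% and 3.09% of all genes, with 5, 3 and 2 members at an unadjusted p under 0.05, against 13.2%, 14.6% and 12.3% of all genes. With the block 2, 6 and 1 passed in these conditions, against 9.14%, 11.3% and 8.41% of all genes. Cyp4v3 passed in all 4 conditions with the block, at 0.32 in shFOXA2.3 cells with GW4064, 0.39 in shFOXA2.3 cells with DMSO, 0.37 in shlacZ cells with GW4064 and 0.42 in shlacZ cells with DMSO (limma adjusted p from 0.00587 to 0.0445). Cyp3a13 did not pass in either condition with GW4064, where no member was called lower with the block. The differences between conditions were tested as interactions, and no member passed, with or without the block, as was true of all genes (0.0% for each of the 3 interactions in limma), and 2, 1 and 2 members had an unadjusted p under 0.05 for hormone by drug, hormone by hairpin and drug by hairpin, against 2.63%, 4.15% and 3.18% of all genes. For Cyp4v3 the interaction with the drug was -0.06 (95% interval -0.43 to 0.31) and for Cyp3a13 it was 0.02 (-0.15 to 0.19).

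GW4064 against DMSO gave no P450 call. Averaged over hormones and hairpins, 0 of 89 members passed in limma, with or without the block. The shares of all genes were 0.00902% (2 genes) without it and 0.0135% with it. Without the block 4 of 89 members had an unadjusted p under 0.05, against 3.45% of all genes, and with it 6 of 89, against 5.98%. The largest difference was that of Cyp1a1, with 2.77, 4.10 and 5.43 with GW4064, against 3.06, 3.50 and 4.74 with DMSO. The groups overlapped widely, and the difference was 0.50 (SE 0.227, limma adjusted p = 1.00, and 0.581 with the block), positive in 10 of 12 pairs and 0.86, 0.43 and 0.20 in experiments 1, 2 and 3. Cyp2r1 was at -0.22 and Cyp4f17 at -0.22, with limma adjusted p of 0.505 and 0.738 with the block. For Cyp2b10 and Cyp3a11 the differences were -0.02 and -0.01, with 95% block intervals from -0.12 to 0.08 and from -0.13 to 0.11. Under glucagon alone and under insulin alone 0 members passed in limma, against 0.0% of all genes in each, and 2 and 4 had an unadjusted p under 0.05, against 3.54% and 2.5%.

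The hairpin likewise gave no P450 call. With shFOXA2.3 against shlacZ, averaged over hormones and drugs, 0 of 89 members passed in limma, with or without the block. The shares of all genes were 0.00902% (2 genes) without it and 0.0766% with it. Without the block 6 of 89 members had an unadjusted p under 0.05, against 6.2% of all genes, and with it 15 of 89, against 11.1%. Cyp2c37 had the largest difference, with 5.06, 5.95 and 6.85 in shFOXA2.3 cells, against 4.54, 5.63 and 6.53 in shlacZ cells. Its difference of 0.37 (SE 0.256, limma adjusted p = 0.870, and 0.264 with the block) was positive in 10 of 12 pairs and in all 3 experiments. Cyp4a31 was at 0.36 (limma adjusted p = 0.303 with the block) and another probe set names it together with Cyp4a10, which has none of its own. Cyp3a44, near the floor, was at 0.27 and positive in 11 of 12 pairs, with the lowest adjusted p of any member in this fit, 0.575. Under glucagon alone and under insulin alone 0 members passed in limma, against 0.0% and 0.00451% of all genes, and 3 had an unadjusted p under 0.05 in each, against 4.22% and 6.51%. The Foxa2 difference itself was -0.12 in experiment 3.

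**Figure D3:**
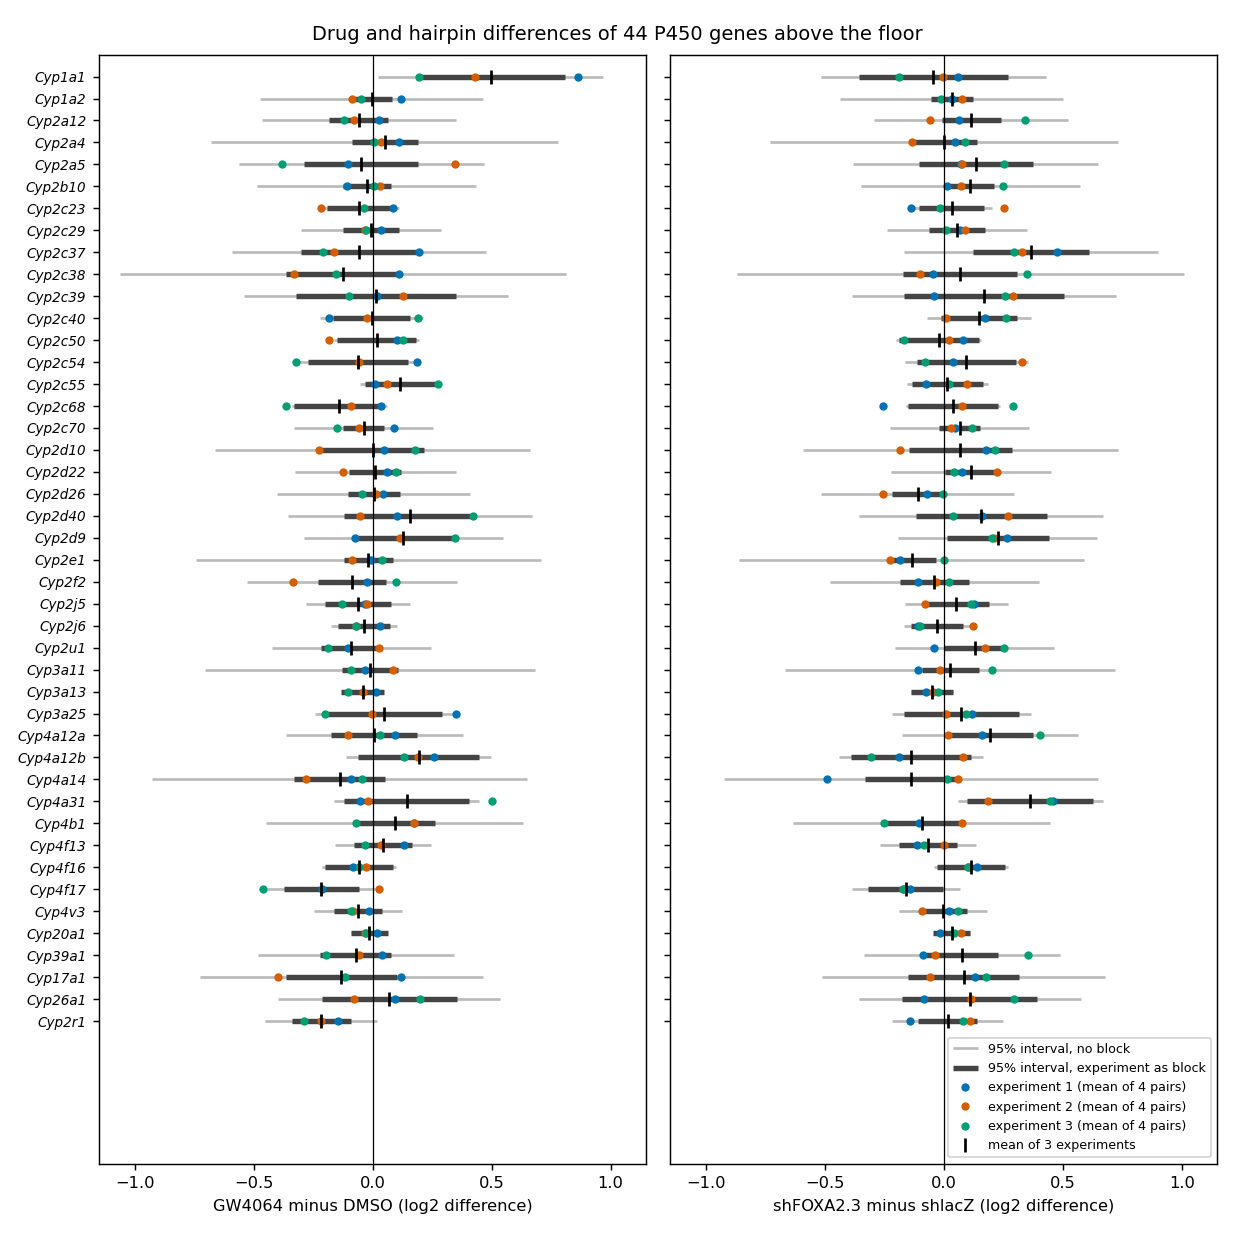
GW4064 minus DMSO (left) and shFOXA2.3 minus shlacZ (right), as log2 differences, for the 44 P450 genes above the floor, ordered by family. Symbols are as in the plot of hormone differences: black ticks for means, coloured points for experiments, grey bars for 95% intervals without the block and dark bars with it. Most ticks lie within 0.2 of 0, and Cyp1a1 on the left and Cyp2c37 and Cyp4a31 on the right lie farthest out.

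The P450 genes differed more between experiments than between hormones. The 8 arrays of an experiment share a pool of hepatocytes and its culture, and their effects cannot be told apart. For members above the floor the median range between the highest and lowest experiment mean was 0.79, against 0.25 for all genes above it. The range was larger than the hormone difference in 42 of 44 members (95.5%), against 66.2% of all genes above the floor, and over 1, a doubling, in 15 of 44 (34.1%), against 3.59%. In 19 of 44 (43.2%) the 8 arrays of the highest experiment lay wholly above the 8 of the lowest, against 16.4%. Over all 89 members this was 22 (24.7%), against 7.99% of all genes. With only the 40 members whose mean over the 24 arrays lay above the floor, the median range was 0.81.

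Cyp2e1 was at 8.72 to 9.08 on the arrays of experiment 1, at 8.10 to 8.54 in experiment 2 and at 9.93 to 10.2 in experiment 3, without overlap between any of them. Cyp3a11 followed another order, at 9.11 to 9.57, 7.41 to 7.68 and 8.09 to 8.56 in experiments 1, 2 and 3, again without overlap. Cyp2b10 was at 11.7 to 11.9 in experiment 1 and lowest in experiment 3, at 10.3 to 10.9. These genes did not share 1 order: Cyp2e1 was highest in experiment 3, and Cyp3a11 and Cyp2b10 in experiment 1.

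Cyp2c38 had the widest range, 2.28, with 5.01 to 5.55 in experiment 1, against 2.54 to 3.21 in experiment 2, where it was below the floor. Cyp4a14 was at 4.64 to 5.59 in experiment 1, and at or below 3.76 on all arrays of the other 2. Cyp1a2 stood apart in the same way, at 7.54 to 7.95 in experiment 1 and between 6.49 and 6.86 in the other 2. Ranges over 1 were also found for Cyp2a4 (1.73), Cyp2d10 (1.61), Cyp17a1 (1.41) and Cyp4b1 (1.23). By experiment, 24 of the 44 members were highest in experiment 1, 7 in experiment 2 and 13 in experiment 3, and 26 were lowest in experiment 2. Of all 10014 genes above the floor, 3625, 3248 and 3141 were highest in experiments 1, 2 and 3, and 3179 were lowest in experiment 2.

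Both genes with a hormone call were among the steadier ones. Cyp3a13 had the smallest range of the 44, 0.04, with means of 9.79, 9.76 and 9.80 in experiments 1, 2 and 3, and Cyp20a1, a P450 of unassigned function, had 0.04 as well, with 8.20, 8.19 and 8.23. Cyp4v3 had a range of 0.39. The error of the hormone test without the block holds these ranges: its median SE was 0.17 for members above the floor, against 0.08 for all genes above it, and with the block 0.07 against 0.06.

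Some lists of markers of other cells, though not all, also differed between experiments. The summed level of the 10 endothelial markers was 49.1 to 50.3 in experiment 1, 40.1 to 41.5 in experiment 2 and 41.5 to 43.2 in experiment 3, and the stellate sum was 36.6 to 38.4, 34.4 to 35.8 and 34.3 to 35.9. The stellate markers, 3 of 10 above the floor, did not move as a set. Acta2 had means of 7.06, 5.42 and 4.74 in experiments 1, 2 and 3. Reln went the other way, at 3.31, 3.79 and 4.04, and Dcn was at 6.29, 5.91 and 6.32. The macrophage sum was 35.2 to 36.4, 33.3 to 35.4 and 35.6 to 37.1, another order. The macrophage markers, 2 of 10 above the floor, did not move as a set either. Cd68 had means of 8.82, 8.60 and 9.93 in experiments 1, 2 and 3, and Marco 4.21, 3.88 and 3.93. The sums of the 9 hepatocyte markers overlapped, at 93.6 to 95.8, 93.2 to 95.9 and 93.7 to 96.2. Single hepatocyte markers differed in this. The highest and lowest experiments did not overlap for Apoc3 (means of 6.05, 5.35 and 5.81 in experiments 1, 2 and 3). The same held for Ambp (10.99, 11.14 and 10.82) and Apob (11.63, 11.85 and 11.66). For Alb, Apoa1, Fgb, Hpx, Serpinc1 and Ttr they overlapped. The cholangiocyte sums overlapped, at 23.9 to 28.0, 24.6 to 27.7 and 24.3 to 25.5. The lymphocyte sums overlapped as well, at 19.8 to 20.7, 20.3 to 21.4 and 19.9 to 21.3. By hormone the hepatocyte sum was 94.3 to 96.2 under glucagon and 93.2 to 95.2 under insulin, and the endothelial sum 40.4 to 50.3 and 40.1 to 50.3. The sum of the 7 cholangiocyte markers was 23.9 to 25.3 under glucagon and 25.1 to 28.0 under insulin, with 1 of the 7 called lower (2 with the block). Of the 9 hepatocyte markers 2 were called higher (4 with the block), and their median difference was 0.11, beside 0.14 for the P450 genes above the floor. In bulk samples fewer cells of a type and less RNA per cell cannot be told apart, and the part of these markers in the P450 differences was not tested.

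**Figure D4:**
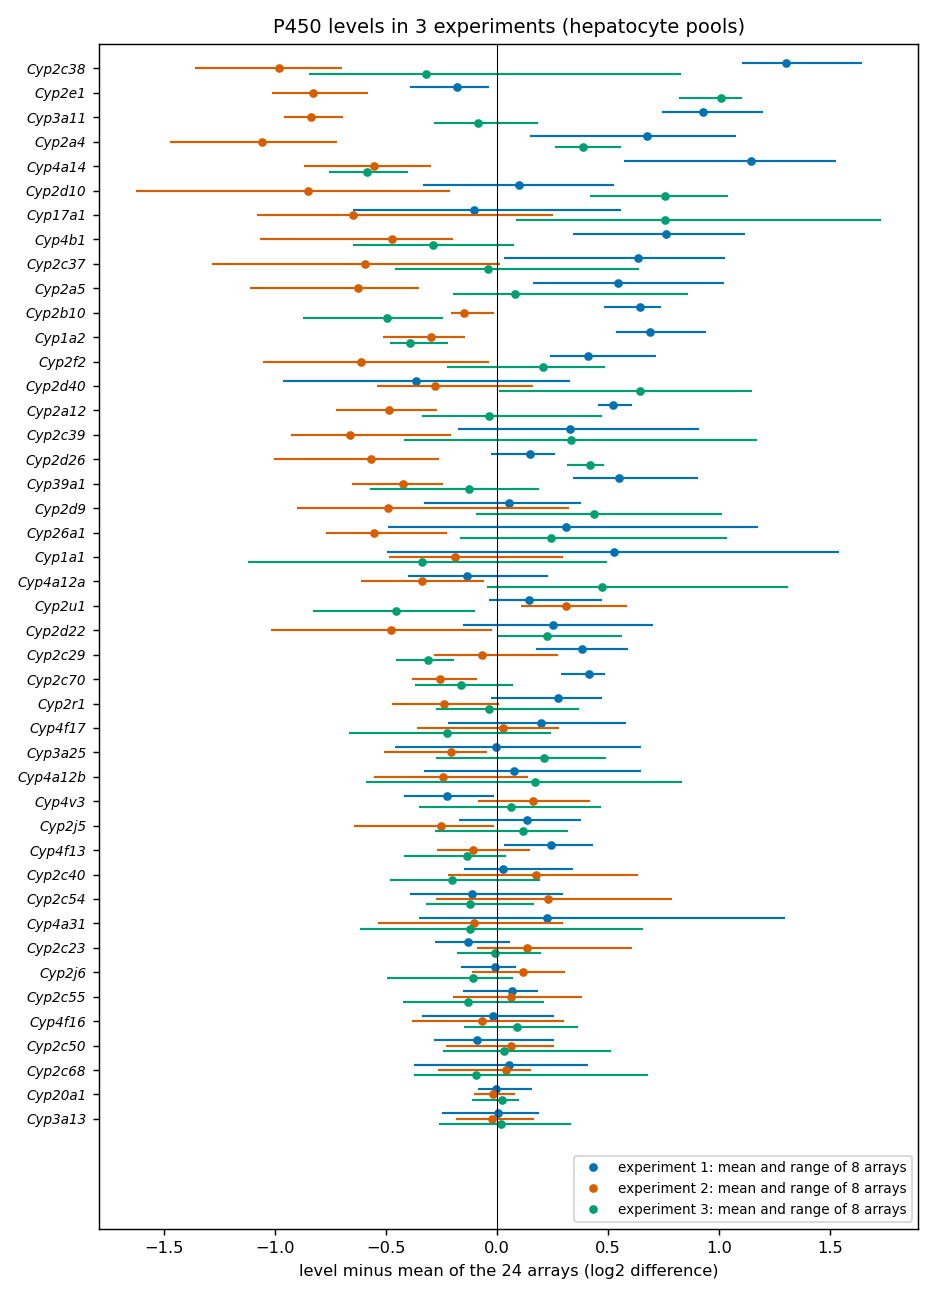
Level in each experiment minus the mean of the 24 arrays, as a log2 difference, for the 44 P450 genes above the floor, sorted by the range between experiment means. Points are means and bars the range of the 8 arrays of an experiment. The highest and lowest experiments do not overlap for 19 of the genes, most of them near the top, and the points of Cyp20a1 and Cyp3a13 at the bottom nearly coincide.

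**Figure D5:**
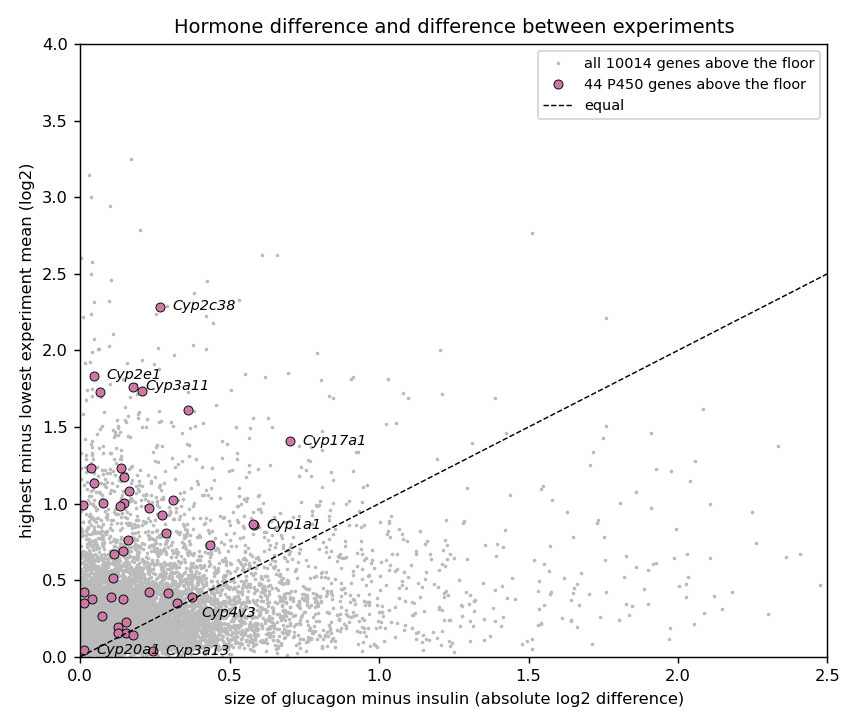
Range between the highest and lowest experiment mean (vertical, log2) against the size of the glucagon minus insulin difference (horizontal, absolute log2) for the 44 P450 genes and for all 10014 genes above the floor, of which 26 lie outside the axes. The dashed line marks equal values, and 42 of the 44 P450 genes lie above it.

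Genes of heme turnover and of the electron supply of P450 enzymes were tested in the same fit. Of 17 measured genes of this list, 7 rose and 1 fell under glucagon, and 9 did not pass (limma, averaged), against calls in 33.0% of all genes above the floor, where all 17 lay. The median was 0.17, against 0.01 for all genes, and it was not tested against that of the P450 genes. Alas1, the first and rate-limiting enzyme of heme synthesis, had 8.53, 8.88 and 9.05 under glucagon, against 7.73, 7.83 and 8.28 under insulin, with no overlap, a rise of 0.97 (SE 0.079, adjusted p = 1.9e-08). The later enzymes Ppox (0.44) and Fech (0.27) rose and Cpox fell (-0.42). Hmox1, which degrades heme, rose by 1.08, and Blvra, which reduces its product biliverdin, by 0.23. Cyb5a, the cytochrome b5 that passes electrons to P450 enzymes, rose by 0.68 and Fdx1, the mitochondrial electron carrier, by 0.38. Por, the main P450 reductase, had no probe set of its own here.

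Regulators of P450 genes were tested in the same way: 13 of 32 on the arrays were higher under glucagon, 2 were lower and 17 did not pass, against calls in 16.2% of all genes and 33.0% of those above the floor, where 25 of the 32 lay. The median was 0.13, against 0.01 for all genes. Ppargc1a, a coactivator of fasting genes, passed with a higher level under glucagon, at 6.12 to 8.64 on those arrays, against 2.61 to 3.91 on the insulin arrays, most of which lay below the floor, so that no size is given. The liver factors Foxa1 (1.21), Foxa2 (1.19), Onecut1 (1.07), Hnf4a (0.97) and Cebpa (0.58) rose, as did Ahr (0.74), the receptor that induces Cyp1a1, and Ppara (0.53), the receptor that induces CYP4A genes. The glucocorticoid receptor Nr3c1 (-0.50) and the FXR gene Nr1h4 (-0.48) fell. Rora (0.57), Bcl6 (0.47), Cebpb (0.33), Nfe2l2 (0.24) and Stat5b (0.24) made up the other rises, of which those of Nfe2l2 and Stat5b passed in 13 and 11 of 32 alternatives. The PXR gene Nr1i2 was at 0.71 (SE 0.253, limma adjusted p = 0.0629, and 0.0137 with the block), and the CAR gene Nr1i3 was near the floor, at 2.63 to 3.44 under glucagon and 2.68 to 3.10 under insulin. With GW4064 the only gene of either list that passed was Nr0b2, and with the hairpin none did without the block.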

How the data were processed

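Expression was measured on Affymetrix MoGene 2.0 ST arrays with 300 ng total RNA as input, as the labels' protocols state. The values are on a log2 scale, as read from their range of 1.46 to 13.5, and are those the authors deposited. Per the series' design text, the arrays were processed with GeneSpring and technical replicates were pooled within each sample. The sources used here do not name their normalization or background correction. Of 41345 probe sets, 23521 had 1 gene symbol in the platform annotation, 1814 several and 16010 none. A gene's brightest single-symbol probe set was used, which gave 22180 genes. All 89 members matched the RefSeq gene table (GRCm38.p6), 4 had 2 probe sets, and 6 probe sets naming several P450 genes or a P450 gene and a neighbour were not tested. Genes of the CYP2A, 2C, 2D, 3A and 4A groups have near-identical copies whose signals may be mixed.

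Groups were compared with limma 3.58.1 in R 4.3.3 (lmFit, eBayes, 1 mean per group, 24 arrays, 16 residual degrees of freedom), with Benjamini-Hochberg adjustment over all genes and a threshold of 0.05. The number of arrays limits the precision. Averaged differences rest on 3 pools. Without a block, p-values measure the spread of arrays within groups, which holds the differences between experiments. With the experiment as a block, they measure the spread left after these differences are taken out. In both fits the arrays of 1 pool count as separate replicates. The experiment number pairs the arrays, since the labels give it and each experiment is 1 pool. In all 84 pairs of arrays of the same experiment, deviations from the group means correlated, at r = 0.374 to 0.698. A fit with this block (14 residual degrees of freedom) was the main alternative. The others were a filter on low levels (at least 4 on 3 or more arrays), arrays centred on their medians, other probe set and model choices, and leaving out experiments or single arrays. The floor on the mean of all 24 arrays was added after seeing the data. Members named in full were those passing an averaged or interaction contrast, the 10 of highest mean, and known inducible genes, while Cyp2d22, Cyp2d10, Cyp2f2, Cyp39a1, Cyp2a4, Cyp2j6, Cyp4f17, Cyp2r1, Cyp2c37, Cyp2c38, Cyp4a31, Cyp4b1, Cyp3a44 and Cyp2c55 were named after their values were seen. The members, lists and tests were chosen with earlier results of these data known. The fit without the block was also run on simulated data, with independent noise on each array and no differences between experiments. That run therefore cannot show how such differences affect the calls. Figures were drawn with matplotlib 3.10.9.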

Additional observations from a re-analysis of the deposited data

Results flagged for a closer look

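Cyp3a44, a CYP3A gene near the floor, had a hormone by drug interaction of 0.5189 (SE 0.137, 95% interval 0.23 to 0.80). It stood out because its glucagon minus insulin differences pointed one way in the pairs with GW4064 and the opposite way in those with DMSO. With GW4064 it averaged 3.49 ± 0.32 under glucagon and 3.14 ± 0.29 under insulin in shFOXA2.3 cells, and 3.02 ± 0.080 and 2.83 ± 0.035 in shlacZ cells. With DMSO it averaged 3.13 ± 0.059 under glucagon and 3.42 ± 0.15 under insulin in shFOXA2.3 cells, and 3.02 ± 0.079 and 3.23 ± 0.13 in shlacZ cells (SD, n = 3 each). The interaction did not pass limma's test over all genes, where its adjusted p was 1.00, or 0.887 when blocked by experiment, and all of these means lie under the floor of 3.75.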

How the results depend on the processing

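Counts of P450 calls moved most with the experiment as a replicate block. The averaged hormone count was 16 with the block and 2 without, that in shlacZ cells with DMSO 6 and 1, and those in shFOXA2.3 cells with DMSO, shFOXA2.3 cells with GW4064 and shlacZ cells with GW4064 were 6, 2 and 1 with the block and 0 without. The block changed no drug, hairpin or interaction count. Without 1 experiment the averaged hormone count was 2 to 4, that in shlacZ cells with DMSO 0 in each case, and that in shlacZ cells with GW4064 0 to 1. Leaving out single arrays, an alternative chosen after seeing the data, gave 2 to 5, 0 to 1 in shlacZ and in shFOXA2.3 cells with DMSO, and 0 to 1 in shFOXA2.3 cells with GW4064. The highest averaged counts, 5 each, came without the glucagon and GW4064 array of experiment 2 of either hairpin, and 4 came without experiment 2 or without the shlacZ, insulin and GW4064 array of experiment 3. The count of 1 in shFOXA2.3 cells with DMSO came without their insulin array of experiment 1 or the shlacZ, glucagon and GW4064 array of experiment 2, that in shFOXA2.3 cells with GW4064 without their glucagon array of experiment 2 or 3, and that in shlacZ cells with GW4064 without experiment 3. Signs turned only for uncalled differences near 0: Cyp20a1 was at -0.0109 with arrays centred on their medians, and between -0.0079 and 0.0217 without 1 experiment and -0.0001 and 0.0338 without 1 array. Without 1 experiment Cyp1b1 was between -0.0279 and 0.0075 and Cyp24a1 between -0.0191 and 0.0845. Without 1 array Cyp1b1 was between -0.0353 and 0.0092, Cyp2b10 between -0.1396 and 0.0495, Cyp2e1 between -0.0858 and 0.1957, and Cyp4a14 between -0.1021 and 0.2309. The causes were not tested. Signal over background limits the 45 members near the floor.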

Other observations

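TATA letters and the differences between experiments were set side by side in the members above the floor that have a promoter window, a comparison made after both had been seen. The 19 members with TATAAA on either strand had a median range between experiment means of 0.99, and in 11 of them (57.9%) the arrays of the highest and lowest experiments did not overlap. The 14 members without it had a median range of 0.39, and in 4 of them (28.6%) the arrays did not overlap. For all genes above the floor the medians were 0.27 for 747 genes with the letters and 0.24 for 7190 without, and the shares 18.6% and 16.0%. No test was made, and members of a subfamily are related in sequence.

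Probe sets that name several P450 genes were not tested. The 2 that name Cyp3a41a, Cyp3a41b, Cyp3a11 and Cyp3a44 had 8.22 ± 0.69 and 7.65 ± 0.65 under glucagon, against 8.06 ± 0.72 and 7.51 ± 0.70 under insulin (SD, n = 12 each), and were higher under glucagon in 10 of 12 pairs each. That of Cyp2c67 and Cyp2c68 had 8.13 ± 0.36 under glucagon, against 7.93 ± 0.30 under insulin, higher in 9 of 12 pairs. The probe set of Cyp4a10 and Cyp4a31 had 3.57 ± 0.93 under glucagon and 3.47 ± 0.73 under insulin, higher in 6 of 12 pairs. Cyp2c55 had 2 probe sets of opposite sign, 0.12 for the one used and -0.15 for the other, which lay below the floor on every array.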
